A study of Mus musculus with 12 samples.

Results

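The osteoclast resorption and fusion genes are 10 genes whose products let osteoclasts, the multinucleated cells that dissolve bone, differentiate, fuse, attach and break down matrix. They were taken by name: Ctsk, Acp5, Atp6v0d2, Tcirg1, Clcn7, Dcstamp, Ocstamp, Oscar, Nfatc1 and Itgb3. All 10 were found among the 49315 genes of the deposited count table. All 10 passed the filter on low counts, which left 18161 genes to test.

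Osteoclasts form from myeloid precursors when the cytokine RANKL binds its receptor RANK and, together with costimulatory receptors, switches on the transcription factor NFATc1. The precursors fuse, attach to bone through an integrin, and acidify the sealed space beneath them with a vacuolar proton pump and a chloride/proton exchanger. The acid dissolves mineral and cathepsin K digests the collagen that is laid bare.

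RNA of the femoral shaft, which is cortical bone, was sequenced in bulk from male mice aged 12 weeks. The 4 groups were Cat -/- mice given ethanol (KO ethanol), Cat -/- mice given phosphate-buffered saline (KO PBS), Cat +/+ mice given ethanol (WT ethanol) and Cat +/+ mice given PBS (WT PBS). Cat encodes catalase, which in peroxisomes turns hydrogen peroxide into water and oxygen and can use it to oxidise ethanol. Ethanol mice were gavaged for 4 days, at 3 g per kg of body weight on each of the first 2 days, 4 g on the third and 4.5 g on the last, from a solution of 31.5% ethanol by volume. PBS mice received the same volume on the same days, and all mice were killed 6 hours after the last gavage, on regular chow throughout. Marrow was spun out of the bones before RNA extraction. Each library held RNA pooled from 2 mice, with 3 libraries a group and 12 in all, so p-values measure the spread between pools and not between single mice. The making of the Cat allele and the strain are points not given in the sources used here.

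The libraries are called by the numbers in their labels: 4, 5 and 6 are KO ethanol, 1, 2 and 3 are KO PBS, 10, 11 and 12 are WT ethanol, and 7, 8 and 9 are WT PBS. They held 19950222 to 28789308 counts. Levels are in CPM, a gene's count relative to its library's total after TMM scaling. Cat, the targeted gene, had 65.9 to 74.2 CPM in KO libraries, against 128 to 175 CPM in WT libraries, so the genotypes did not overlap but Cat RNA was still counted in KO bone. Genes read as osteoclast markers were present in every library, at 394 to 927 CPM for Ctsk, 405 to 876 for Acp5, 769 to 1280 for Mmp9, 10.1 to 16.1 for Tnfrsf11a and 0.976 to 7.37 for Calcr. Of these, Mmp9 is also a neutrophil gene, and Calcr had as few as 26 counts in a library. Muscle RNA differed widely: the 15 skeletal muscle markers summed to 1260 to 36300 CPM in WT ethanol libraries and 3010 to 34100 in WT PBS libraries, with 36300 in library 12, 34100 in library 9 and 31000 in library 8. Although marrow was spun out, blood cell RNA remained in every library. The 10 neutrophil markers summed to 22400 to 39800 CPM over the 12 libraries and the 10 erythroid markers to 10900 to 21200 CPM. The 10 osteoclast genes summed to 1830 to 3080 CPM. Library 10 had the lowest muscle sum of all (1260 CPM) and was the highest of the 12 libraries for 9 of the 10 osteoclast genes. For the 10 genes, where omitting library 10, or 8, 9 and 12 together, ended an edgeR call, the value without them is given. For other genes, lost calls are given by library numbers, counts or bounds on the adjusted p. In bulk RNA, fewer osteoclasts and less RNA per osteoclast cannot be told apart.

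The genes spanned a wide range of abundance. Per kilobase of exon, averaged over the 12 libraries, the level was 352 CPM for Ctsk and 257 for Acp5, then 109 for Itgb3, 54.0 for Tcirg1 and 20 for Atp6v0d2. Clcn7 had 13.0 and Nfatc1 12.6 CPM per kilobase, followed by Oscar at 4.39, Dcstamp at 2.37 and Ocstamp at 1.56. Each gene stood above the next one in all 12 libraries, except that Clcn7 stood above Nfatc1 in 8 of 12, so the order of that pair was not set beyond the spread. The low end rested on few reads, 100 to 276 counts a library for Dcstamp, 74 to 250 for Ocstamp and 131 to 265 for Oscar, against 9130 to 20107 for Ctsk.

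Ethanol was first compared with PBS within each genotype, the question being what binge ethanol did to bone RNA with and without catalase. In WT bone all 10 genes had a higher mean after ethanol, with a median log2 fold change of 0.45, against −0.02 over all tested genes, of which 46.3% were higher. None of the 10 passed the test at an adjusted p under 0.05 (edgeR quasi-likelihood test, Benjamini-Hochberg over all tested genes), where 0.556% of all tested genes were called higher. At an unadjusted p under 0.05, 7 of the 10 were higher, against 7.03% of all tested genes. The same 7 were those whose 3 ethanol libraries all lay above the 3 PBS libraries, against 7.32% of all tested genes. DESeq2 called 6 of the 10 higher (Ctsk, Acp5, Tcirg1, Dcstamp, Ocstamp and Oscar; 1.78% of all genes), while limma-voom and limma-trend called 0, as did edgeR with any 1 library left out. In KO bone the median log2 fold change was 0.07, against 0.00 over all tested genes, and edgeR, DESeq2, limma-voom and limma-trend each called 0 of the 10, where edgeR called 0.964% of all tested genes higher. Tcirg1 alone passed an unadjusted p under 0.05 there, against 8.25% of all tested genes higher, and Tcirg1 and Ocstamp had KO groups that did not overlap, against 16.3% of all tested genes higher.

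**Figure D1:**
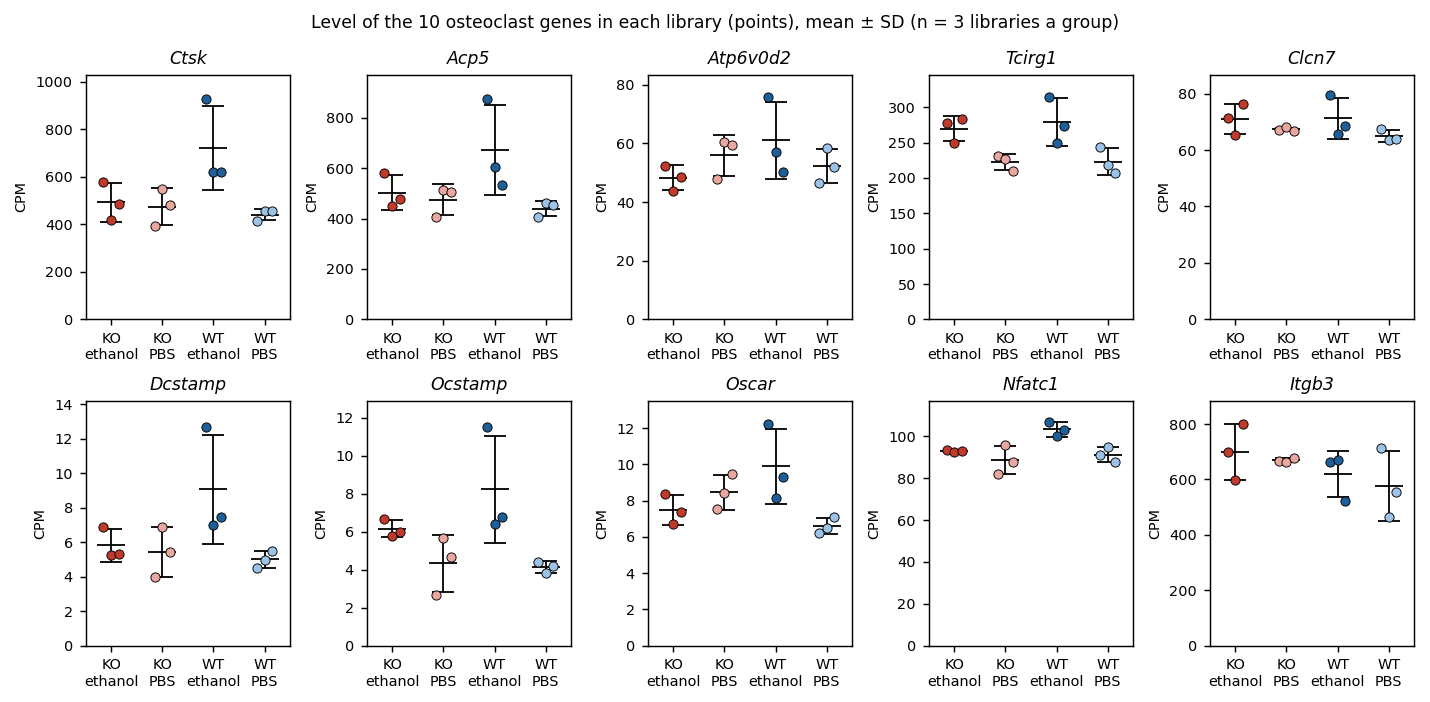
Levels of the 10 genes in CPM (linear axis from 0) in each library (points), with the group mean and SD as bars (n = 3 libraries a group). In WT the highest ethanol library is library 10 for 9 of the 10 genes, and 7 genes show no overlap between WT ethanol and WT PBS. In KO only Tcirg1 and Ocstamp show no overlap.

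Of the 2 matrix enzymes, Ctsk (ENSMUSG00000028111; GRCm38 chromosome 3, 95499256 to 95509362, plus strand) encodes cathepsin K, the collagenase of osteoclasts. It had 577, 416 and 484 CPM in KO ethanol libraries 4, 5 and 6, against 394, 550 and 480 in KO PBS libraries 1, 2 and 3. It had 927, 619 and 622 CPM in WT ethanol libraries 10, 11 and 12, against 413, 454 and 456 in WT PBS libraries 7, 8 and 9. The KO groups were interleaved, whereas every WT ethanol library was above every WT PBS library, with library 10 far above the other 2. The log2 fold change for ethanol was 0.05 in KO (SE 0.18, edgeR adjusted p = 0.944) and 0.71 in WT (SE 0.18, edgeR adjusted p = 0.0838). Over the alternatives the adjusted p in WT ran between 0.00287 (DESeq2) and 0.328, and without library 10 the log2 fold change was 0.49 (adjusted p = 0.163).

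Acp5 (ENSMUSG00000001348; chromosome 9, 22126727 to 22135711, minus strand) encodes tartrate-resistant acid phosphatase, the enzyme stained to identify osteoclasts. It had 580, 449 and 478 CPM in KO ethanol libraries 4, 5 and 6, against 407, 513 and 507 in KO PBS libraries 1, 2 and 3. Its WT levels were 876, 606 and 535 CPM in ethanol libraries 10, 11 and 12, against 405, 460 and 453 in PBS libraries 7, 8 and 9. As with Ctsk, KO groups overlapped and WT groups did not. The ethanol effect, as a log2 fold change, was 0.08 in KO (SE 0.17, edgeR adjusted p = 0.901) and 0.61 in WT (SE 0.17, edgeR adjusted p = 0.113). Without library 10 the WT value was 0.38 (edgeR adjusted p = 0.222; 0.0121 with DESeq2 to 0.342 over the alternatives). Acp5 shares 137 exonic bases with 6530413G14Rik, an antisense transcript with 181 counts over all 12 libraries, with the use of strand in counting not given in the sources used here.

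Among the genes of acid secretion, Tcirg1 (ENSMUSG00000001750; chromosome 19, 3896050 to 3907133, minus strand) encodes the a3 subunit of the proton pump, the one osteoclasts bring to the bone surface. It had 277, 249 and 283 CPM in KO ethanol libraries 4, 5 and 6, against 231, 227 and 210 in KO PBS libraries 1, 2 and 3. It had 315, 249 and 273 CPM in WT ethanol libraries 10, 11 and 12, against 244, 218 and 207 in WT PBS libraries 7, 8 and 9. Every ethanol library was above every PBS library of its genotype. Ethanol against PBS gave a log2 fold change of 0.28 in KO (SE 0.094, edgeR adjusted p = 0.158) and 0.32 in WT (SE 0.094, edgeR adjusted p = 0.118). Over the alternatives the adjusted p ran between 0.0228 and 0.433 in KO and between 0.03 and 0.478 in WT. In KO the call was made in a fit of the KO groups alone (edgeR adjusted p = 0.0228, with 4.86% of all genes called higher there) and with a muscle covariate (0.0482, 2.46% of all genes), and in WT with DESeq2.

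Atp6v0d2 (ENSMUSG00000028238; chromosome 4, 19876841 to 19922605, minus strand) encodes the d2 subunit of the same pump, which in mice is also needed for precursor fusion. It had 52.3, 43.8 and 48.6 CPM in KO ethanol libraries 4, 5 and 6, against 48.0, 60.6 and 59.4 in KO PBS libraries 1, 2 and 3. In WT it had 75.7, 57.2 and 50.3 CPM in ethanol libraries 10, 11 and 12, against 46.6, 58.3 and 52.0 in PBS libraries 7, 8 and 9. Both genotypes had overlapping groups, and library 10 alone stood clear of the WT PBS range. Its ethanol fold change, on the log2 scale, was −0.21 in KO (SE 0.15, edgeR adjusted p = 0.542) and 0.23 in WT (SE 0.15, edgeR adjusted p = 0.501), and 0.04 in WT without library 10.

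Clcn7 (ENSMUSG00000036636; chromosome 17, 25133391 to 25162104, plus strand) encodes the chloride/proton exchanger that balances the charge of the pumped protons. It had 71.2, 65.5 and 76.4 CPM in KO ethanol libraries 4, 5 and 6, against 67.2, 68.0 and 66.9 in KO PBS libraries 1, 2 and 3. In WT bone it had 79.5, 65.7 and 68.6 CPM in ethanol libraries 10, 11 and 12, against 67.3, 63.6 and 64.0 in PBS libraries 7, 8 and 9. It was the steadiest of the 10 genes, with a highest library 1.25 times its lowest. Its log2 fold change was 0.08 in KO (SE 0.076, edgeR adjusted p = 0.713) and 0.13 in WT (SE 0.077, edgeR adjusted p = 0.434), and 0.05 in WT without library 10.

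The fusion genes had the largest WT fold changes of the 10. Dcstamp (ENSMUSG00000022303; chromosome 15, 39745930 to 39760938, plus strand) encodes DC-STAMP, a membrane protein required for cell fusion of osteoclasts. It had 6.90, 5.25 and 5.29 CPM in KO ethanol libraries 4, 5 and 6, against 3.98, 6.88 and 5.41 in KO PBS libraries 1, 2 and 3. Its WT levels were 12.7, 7 and 7.48 CPM in ethanol libraries 10, 11 and 12, against 4.51, 4.97 and 5.51 in PBS libraries 7, 8 and 9. The KO groups overlapped and the WT groups did not. On the log2 scale the fold change was 0.10 in KO (SE 0.25, edgeR adjusted p = 0.915) and 0.86 in WT (SE 0.25, edgeR adjusted p = 0.118). Without library 10 it was 0.54 in WT (edgeR adjusted p = 0.294; 0.035 with DESeq2 to 0.336 over the alternatives).

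Ocstamp (ENSMUSG00000027670; chromosome 2, 165393760 to 165400405, minus strand) encodes OC-STAMP, a related membrane protein also required for fusion in mice. It had 6.66, 5.80 and 5.99 CPM in KO ethanol libraries 4, 5 and 6, against 2.68, 5.66 and 4.67 in KO PBS libraries 1, 2 and 3. In WT it had 11.5, 6.39 and 6.79 CPM in ethanol libraries 10, 11 and 12, against 4.43, 3.83 and 4.21 in PBS libraries 7, 8 and 9. Ethanol libraries were above PBS libraries in both genotypes, by a narrow gap in KO (5.80 against 5.66 CPM). The ethanol effect, as a log2 fold change, was 0.50 in KO (SE 0.27, edgeR adjusted p = 0.388) and 0.99 in WT (SE 0.27, edgeR adjusted p = 0.103). Without library 10 the WT value was 0.66 (edgeR adjusted p = 0.255; 0.0194 with DESeq2 to 0.393 over the alternatives), and without library 1, the lowest, the KO value was 0.25.

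Of the genes of signalling and attachment, Oscar (ENSMUSG00000054594; chromosome 7, 3609813 to 3616157, minus strand) encodes a collagen-binding costimulatory receptor of osteoclasts. It had 8.35, 6.72 and 7.37 CPM in KO ethanol libraries 4, 5 and 6, against 7.52, 8.40 and 9.46 in KO PBS libraries 1, 2 and 3. In WT bone it had 12.2, 8.17 and 9.32 CPM in ethanol libraries 10, 11 and 12, against 6.24, 6.51 and 7.08 in PBS libraries 7, 8 and 9. KO ethanol lay within and below the KO PBS range, and WT ethanol wholly above WT PBS. Ethanol against PBS gave a log2 fold change of −0.18 in KO (SE 0.15, edgeR adjusted p = 0.65) and 0.58 in WT (SE 0.16, edgeR adjusted p = 0.0941). Without library 10 the WT value was 0.40 (edgeR adjusted p = 0.23; 0.0275 with DESeq2 to 0.342 over the alternatives).

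Nfatc1 (ENSMUSG00000033016; chromosome 18, 80606205 to 80713071, minus strand) encodes the transcription factor that directs osteoclast differentiation. It had 93.5, 92.5 and 93.2 CPM in KO ethanol libraries 4, 5 and 6, against 82.2, 95.6 and 87.7 in KO PBS libraries 1, 2 and 3. Its WT levels were 107, 100 and 103 CPM in ethanol libraries 10, 11 and 12, against 91.0, 94.9 and 87.6 in PBS libraries 7, 8 and 9. The WT groups did not overlap, yet the difference was small. Its ethanol fold change, on the log2 scale, was 0.07 in KO (SE 0.062, edgeR adjusted p = 0.64) and 0.18 in WT (SE 0.062, edgeR adjusted p = 0.179).

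Itgb3 (ENSMUSG00000020689; chromosome 11, 104608000 to 104670476, plus strand) encodes the integrin β3 chain, which attaches osteoclasts to bone and is also a major platelet and megakaryocyte protein. It had 698, 597 and 801 CPM in KO ethanol libraries 4, 5 and 6, against 668, 663 and 678 in KO PBS libraries 1, 2 and 3. In WT it had 664, 671 and 523 CPM in ethanol libraries 10, 11 and 12, against 712, 464 and 555 in PBS libraries 7, 8 and 9. It was the only one of the 10 whose highest library was not library 10 but library 6. Its log2 fold change was 0.06 in KO (SE 0.15, edgeR adjusted p = 0.919) and 0.10 in WT (SE 0.15, edgeR adjusted p = 0.8), and −0.02 in WT without library 8. The 10 megakaryocyte and platelet markers summed to 2590 CPM in library 6, where Itgb3 was highest, and to 1680 in library 8 and 1480 in library 12, where it was lowest. Their part in the Itgb3 level was not tested.

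**Figure D2:**
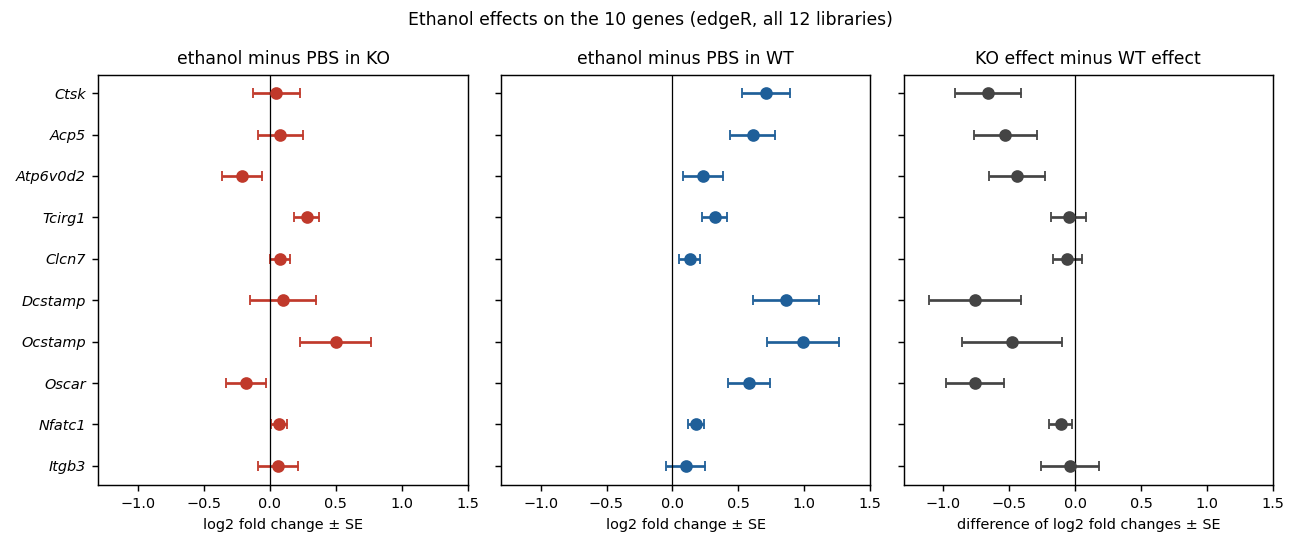
Log2 fold change for ethanol against PBS in KO and in WT, and the KO value minus the WT value, for each gene (points; bars are ± 1 SE, edgeR, all 12 libraries). All 10 points lie to the right of 0 in WT, 8 of 10 in KO, and all 10 differences lie to the left of 0.

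Averaged over both genotypes, all 10 genes had a positive log2 fold change for ethanol, where 47.9% of all tested genes did. Of the 10, edgeR called 2 higher, against 5.02% of all tested genes. Tcirg1 rose by a log2 fold change of 0.30 (SE 0.066, edgeR adjusted p = 0.0158), a 1.23-fold difference. Ocstamp rose by 0.74 (SE 0.19, edgeR adjusted p = 0.0294), or 1.68-fold. At an unadjusted p under 0.05, 6 of the 10 were higher, against 12.5% of all tested genes, and the median log2 fold change was 0.25, against −0.01 over all tested genes. Ctsk had 0.38 (SE 0.12, edgeR adjusted p = 0.0775), Nfatc1 0.13 (SE 0.044, 0.0887), Acp5 0.35 (SE 0.12, 0.0951) and Dcstamp 0.48 (SE 0.18, 0.104). DESeq2 called 5 of the 10 higher (6.61% of all genes), adding Ctsk, Acp5 and Nfatc1 with adjusted p of 0.0166, 0.0295 and 0.0479.

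The Tcirg1 call held in 20 of 21 alternatives (adjusted p 0.000413 to 0.0721), among them each of the 12 fits with 1 library left out. It was lost without libraries 8, 9 and 12 (edgeR adjusted p = 0.0721). The Ocstamp call held in 13 of 21 (adjusted p 0.0031 to 0.139). It was lost when any 1 of libraries 3, 4, 5, 6, 8, 9 or 10 was left out, with an adjusted p of at most 0.0652 in these fits, and without libraries 8, 9 and 12 together (0.139). Without library 10 the averaged log2 fold change was 0.25 for Tcirg1 (edgeR adjusted p = 0.0269) and 0.58 for Ocstamp (0.0533).

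KO was next compared with WT under each gavage. Under PBS the 10 genes differed little, with a median log2 fold change of 0.10, against −0.01 over all tested genes. None passed the edgeR test, DESeq2 or either limma fit, where edgeR called 0.0110% of all tested genes in either direction. Oscar had 7.52, 8.40 and 9.46 CPM in KO PBS, against 6.24, 6.51 and 7.08 in WT PBS, without overlap (8.98% of all tested genes did not overlap and were higher). Its log2 fold change was 0.36 (SE 0.16, edgeR adjusted p = 0.605). Oscar was the only one of the 10 with an unadjusted p under 0.05 there, against 3.30% of all tested genes higher. The other 9 lay between −0.04 (Nfatc1) and 0.21 (Itgb3), and Itgb3 had −0.087 without libraries 8, 9 and 12. Marker lists moved under PBS too, with 15 of 15 muscle (median −1.61) and 10 of 10 neutrophil markers (−0.28) lower in KO. Higher there were 10 of 10 erythroid (0.44) and 9 of 10 macrophage markers (0.35). Of these, edgeR, DESeq2 and both limma fits called 0. At an unadjusted p under 0.05, 1 muscle and 1 neutrophil marker were lower and 3 erythroid and 8 macrophage markers higher. Also higher in KO were 10 of 10 B cell (median 0.28), 10 of 10 megakaryocyte and platelet (0.23), 7 of 7 T cell (0.15) and 8 of 10 osteoblast markers (0.35). Lower were 6 of 7 osteocyte markers (−0.42). In these further lists edgeR called 0 genes, with 0 at an unadjusted p under 0.05. The median of the 10 genes was 0.03 with the muscle markers as a covariate and 0.01 with the neutrophil, erythroid and B cell markers. In each of these fits 6 of the 10 were higher in KO. The part of macrophage, megakaryocyte, T cell, osteoblast and osteocyte RNA, and of neutrophil, erythroid or B cell RNA by itself, was not tested.

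Under ethanol 9 of the 10 genes had a lower mean in KO than in WT, with a median log2 fold change of −0.37, against 0.00 over all tested genes. Of all tested genes, 48.8% were higher in KO. None passed the edgeR test (0.0110% of all tested genes were called lower), and DESeq2 and both limma fits also called 0. At an unadjusted p under 0.05, 6 of the 10 were lower, against 1.62% of all tested genes. Among these 6, the enzymes Ctsk and Acp5 had log2 fold changes of −0.55 (SE 0.18) and −0.42 (SE 0.17), and the fusion gene Dcstamp −0.64 (SE 0.25). Oscar had −0.40 (SE 0.15), Atp6v0d2 −0.34 (SE 0.15) and Nfatc1 −0.15 (SE 0.062). Every KO ethanol library was below every WT ethanol library for Ctsk, Dcstamp and Nfatc1, against 4.04% of all tested genes. The edgeR adjusted p was 0.82 for each of the 6. This comparison uses the same 3 WT ethanol libraries as the ethanol comparison in WT. Without library 10 the median was −0.14, with 3 of the 10 genes higher in KO, and Ctsk had −0.33 (edgeR adjusted p = 0.4, within a range of 0.4 to 1 over its alternatives). Beside this, 15 of 15 muscle markers (median −1.43) and 10 of 10 neutrophil markers (−0.21) were lower in KO ethanol than in WT ethanol. Higher were 10 of 10 erythroid markers (0.37), 10 of 10 megakaryocyte and platelet markers (0.29) and 9 of 10 macrophage markers (0.33). Of these, edgeR, DESeq2 and both limma fits called 0, and 5 macrophage, 2 erythroid and 1 megakaryocyte marker were higher at an unadjusted p under 0.05. The median of the 10 genes was −0.39 with the muscle markers as a covariate and −0.41 with the neutrophil, erythroid and B cell markers. The part of macrophage and megakaryocyte RNA, and of neutrophil or erythroid RNA by itself, was not tested.

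The difference between the ethanol effects, KO minus WT, was then tested as an interaction. It was negative for all 10 genes, with a median of −0.46, against 0.02 over all tested genes, of which 55.9% were positive. None passed the edgeR test (adjusted p = 1 for each; 0% of all tested genes were called), nor did any by DESeq2 or either limma fit. At an unadjusted p under 0.05, 3 of the 10 were negative, against 1.06% of all tested genes: Oscar (−0.76, SE 0.22), Ctsk (−0.66, SE 0.25) and Acp5 (−0.53, SE 0.24). Dcstamp had −0.76 (SE 0.35), Ocstamp −0.48 (SE 0.38) and Atp6v0d2 −0.44 (SE 0.21). The other 4 were closer to 0, at −0.11 for Nfatc1, −0.06 for Clcn7, −0.05 for Tcirg1 and −0.04 for Itgb3. Without library 10 the median was −0.21 and 3 of the 10 turned positive, while Oscar had −0.58, Ctsk −0.44, Dcstamp −0.43, Acp5 −0.30, Atp6v0d2 −0.26 and Ocstamp −0.16. Without libraries 8, 9 and 12 the median was −0.63, with 1 WT PBS library left. Marker lists of other cells also had differences of 1 sign: 10 of 10 osteoblast markers (median −0.36), 10 of 10 B cell markers (−0.24) and 7 of 7 T cell markers (−0.17) were negative. Of these markers edgeR, DESeq2 and both limma fits called 0, with 1, an osteoblast marker, at an unadjusted p under 0.05. The median of the 10 genes was −0.4 with the muscle markers as a covariate and −0.41 with the neutrophil, erythroid and B cell markers. The part of osteoblast and T cell RNA, and of B cell RNA by itself, was not tested.

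**Figure D3:**
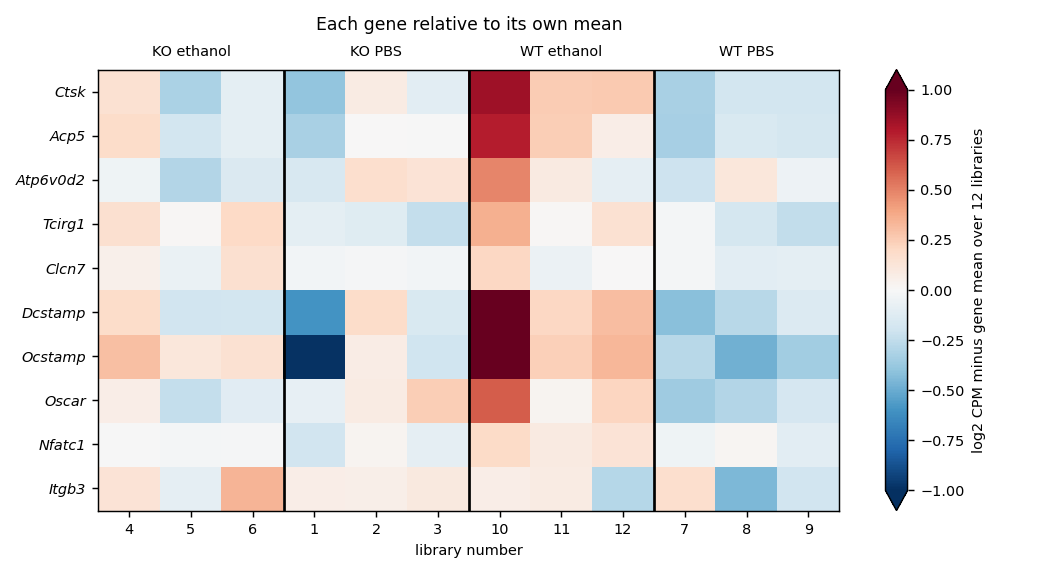
Log2 CPM of each gene in each library, less the gene's own mean over the 12 libraries (colour from blue, −1, through white, 0, to red, 1; values beyond ± 1 take the end colour). Library 10 is the reddest column, library 1 the bluest for Dcstamp and Ocstamp, and the WT PBS libraries are blue in most genes.

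Most of the 10 genes kept much of one pattern over the libraries. The mean centred log2 level of all 10 was 0.12, −0.13 and 0.02 in KO ethanol libraries 4, 5 and 6, against −0.28, 0.06 and −0.04 in KO PBS libraries 1, 2 and 3. It was 0.57, 0.12 and 0.11 in WT ethanol libraries 10, 11 and 12, against −0.18, −0.20 and −0.17 in WT PBS libraries 7, 8 and 9. In this mean the ethanol and PBS libraries did not overlap in WT and overlapped in KO; it is a description, with no test. The span between the highest and the lowest library was widest for the fusion genes, at 4.31-fold for Ocstamp and 3.20-fold for Dcstamp. It was 2.35-fold for Ctsk, 2.16-fold for Acp5, 1.96-fold for Oscar and 1.73-fold each for Itgb3 and Atp6v0d2. Tcirg1 (1.52-fold), Nfatc1 (1.30-fold) and Clcn7 (1.25-fold) varied least. Cells other than osteoclasts also express these genes, as they do Itgb3, and the part of those cells in the spans was not tested.

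Set against Ctsk per kilobase in the same library, Acp5 held the steadiest ratio, 0.640 to 0.804 over the 12 libraries, a 1.26-fold span. Dcstamp kept 0.00574 to 0.00779, a 1.36-fold span, although its own level varied 3.20-fold. The span of the ratio was 1.5-fold for Oscar, 1.59-fold for Atp6v0d2 and 1.76-fold for Tcirg1. It was widest for Itgb3, at 0.184 to 0.441 or 2.40-fold, followed by Ocstamp at 2.05-fold. The enzymes Ctsk and Acp5 and the fusion gene Dcstamp thus moved in near proportion over the libraries, and Itgb3 least.

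Genes outside the 10 were ranked by the root mean square difference of their centred log2 level from the mean of the 10, over the 12 libraries and 11594 genes of at least 5 CPM on average. The value for a gene with no variation at all would be 0.217, and the median gene had 0.257. The nearest were Slc37a2 (0.0794), a sugar-phosphate transporter family member, Traf1 (0.0940), a TNF receptor adaptor, Fam109a (0.0964), Gpr137b (0.0968), a lysosomal membrane protein, and Glb1 (0.0974), lysosomal β-galactosidase. Tnfrsf11a (0.1), which encodes RANK, C77080 (0.106) and Ckb (0.112), the brain-type creatine kinase, came next. Their log2 fold changes for ethanol in WT were between 0.26 (Ckb) and 0.49 (Slc37a2), none of them called by edgeR (lowest adjusted p = 0.0787, Traf1). They were picked for closeness to the mean of the 10 in these same libraries, so this direction follows from the choice. Of the 10 genes themselves, each of which is part of the mean, Acp5 was nearest to it (0.0968). Dcstamp (0.211) was hardly nearer than a flat gene (0.217), and Ocstamp (0.301) and Itgb3 (0.264) were farther.

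Promoter sequence from RefSeq (GRCm38.p6), 250 bases before to 50 after a start site, was available for 5 of the 10 genes. It is shown for Ctsk, Acp5 and Oscar, the genes with an unadjusted p under 0.05 in the interaction, and for Tcirg1, which rose in the averaged effect. Each is printed 5′ to 3′ on the strand of the gene, at chr3:95498960-95499259 (plus strand) for Ctsk, chr9:22135697-22135996 (minus strand) for Acp5, chr7:3616108-3616407 (minus strand) for Oscar and chr19:3907084-3907383 (minus strand) for Tcirg1. For Acp5 and Tcirg1, 1 of 3 listed start sites is shown. Capitals mark matches on either strand of the NFAT core GGAAA (printed TTTCC when on the other strand) and the PU.1 core GAGGAA (printed TTCCTC). PU.1 is a myeloid transcription factor.
Ctsk: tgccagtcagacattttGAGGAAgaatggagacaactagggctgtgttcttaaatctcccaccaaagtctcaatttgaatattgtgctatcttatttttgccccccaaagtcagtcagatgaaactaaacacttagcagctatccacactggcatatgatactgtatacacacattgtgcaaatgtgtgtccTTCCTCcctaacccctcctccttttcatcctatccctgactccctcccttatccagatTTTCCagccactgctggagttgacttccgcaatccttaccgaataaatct
Acp5: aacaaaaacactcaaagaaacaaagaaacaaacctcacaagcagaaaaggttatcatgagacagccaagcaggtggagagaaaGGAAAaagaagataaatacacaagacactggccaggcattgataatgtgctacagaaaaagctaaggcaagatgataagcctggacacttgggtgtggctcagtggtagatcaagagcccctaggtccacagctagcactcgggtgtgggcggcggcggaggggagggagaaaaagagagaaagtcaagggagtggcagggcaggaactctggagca
Oscar: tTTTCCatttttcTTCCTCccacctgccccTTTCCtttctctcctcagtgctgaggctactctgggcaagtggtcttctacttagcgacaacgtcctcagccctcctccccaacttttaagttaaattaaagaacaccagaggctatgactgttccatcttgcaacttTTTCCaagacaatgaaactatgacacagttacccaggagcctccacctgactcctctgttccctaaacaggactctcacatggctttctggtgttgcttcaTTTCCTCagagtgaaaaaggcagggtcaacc
Tcirg1: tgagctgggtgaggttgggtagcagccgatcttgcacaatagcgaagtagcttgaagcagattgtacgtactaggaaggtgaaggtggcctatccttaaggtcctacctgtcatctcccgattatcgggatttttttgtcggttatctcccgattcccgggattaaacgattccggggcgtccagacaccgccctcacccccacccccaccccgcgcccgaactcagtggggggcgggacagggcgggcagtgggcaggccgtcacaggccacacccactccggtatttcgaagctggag

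Of the 5 promoters, 4 held GGAAA on either strand, with 4 matches in Oscar, 1 in Ctsk, 1 in Acp5 and 1 in Clcn7. Over 32817 RefSeq promoters of the same length, 61.3% held it. GAGGAA was found in 2 of the 5, with 2 matches in Ctsk and 2 in Oscar, against 28.3% of all promoters, and it can overlap GGAAA, as at the last capitals of Oscar. The AP-1 motif TGANTCA was in 0 of the 5, against 7.81% of all promoters, and the E-box CANNTG in 4 of the 5, against 72.3%. Tcirg1 held none of these letters. These counts describe the windows and show no binding.

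Beside the 10, other osteoclast genes were read in 7 lists, all chosen with earlier results of these data known. The list nearest in role, 16 further proton pump subunits and accessory proteins, had 0 called in WT and 0 in KO by edgeR, DESeq2 or either limma fit. At an unadjusted p under 0.05 it had 1 lower and 0 higher in each. Its median log2 fold change for ethanol was 0.00 in KO and 0.07 in WT, against 0.45 for the 10 genes in WT. Atp6v0a2, the a2 subunit of the pump, had 64.9 ± 1.05 CPM in KO ethanol and 73.3 ± 1.13 in KO PBS, and 62.6 ± 5.32 in WT ethanol and 72.6 ± 4.78 in WT PBS (SD, n = 3 each). In the averaged effect it fell by 0.19 on the log2 scale (SE 0.048, edgeR adjusted p = 0.0263; 0.00447 to 0.0699 over the alternatives), against 5.81% of all tested genes called lower, and the call was lost when any 1 of libraries 1 to 6 was left out.

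The 10 partners in acid secretion, vesicle traffic and matrix cleavage had 0 called by edgeR and 0 by DESeq2 in either genotype, with 4 higher in WT and 0 in KO at an unadjusted p under 0.05. Mmp9, a gelatinase of osteoclasts and neutrophils, had 940 ± 39.6 CPM in KO ethanol and 807 ± 45.0 in KO PBS, and 1180 ± 127 in WT ethanol and 943 ± 157 in WT PBS (SD, n = 3 each). Its log2 fold change was 0.22 in KO (SE 0.11, edgeR adjusted p = 0.375), 0.32 in WT (SE 0.11, 0.189) and 0.27 averaged (SE 0.08, 0.051). The 12 partners in fusion, adhesion and the cytoskeleton had 0 called in each genotype by edgeR, DESeq2 and either limma fit, with 2 lower in KO and 1 lower in WT at an unadjusted p under 0.05. Cd44, a hyaluronan receptor, fell in the averaged effect by 0.21 (SE 0.059, edgeR adjusted p = 0.043), and 10 of 12 single-library omissions ended that call (adjusted p at most 0.107), as did testing without the low-count filter.

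Of the 12 receptors and costimulatory genes, 1 rose in each genotype, Calcr, the calcitonin receptor of mature osteoclasts. It had 5.27 ± 1.33 CPM in KO ethanol and 1.72 ± 0.697 in KO PBS, and 7.10 ± 0.254 in WT ethanol and 1.41 ± 0.354 in WT PBS (SD, n = 3 each). On the log2 scale the fold change was 1.62 in KO (SE 0.29, edgeR adjusted p = 0.02) and 2.33 in WT (SE 0.30, edgeR adjusted p = 0.0109). The KO call was lost without library 1, 2 or 6 (adjusted p at most 0.0877), and the WT call without libraries 8, 9 and 12 together (0.0819). The Calcr difference between genotypes was −0.72 (SE 0.41, edgeR adjusted p = 1). None of the 10 genes had a fold change of this size. Trem2, a costimulatory receptor of myeloid cells, fell in the averaged effect by 0.22 (SE 0.061, edgeR adjusted p = 0.04), with 9 of 12 single-library omissions ending the call (adjusted p at most 0.105), as did leaving out libraries 8, 9 and 12 together (0.0858) and testing without the low-count filter.

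Of the 10 activating transcription factors, Fos, the AP-1 subunit needed to form osteoclasts, rose in KO by 0.62 (SE 0.12, edgeR adjusted p = 0.0226) and had 0.51 in WT (SE 0.12, 0.0598). It averaged 14.1 ± 1.33 CPM in KO ethanol and 9.19 ± 0.901 in KO PBS, and 13.3 ± 1.53 in WT ethanol and 9.35 ± 0.601 in WT PBS (SD, n = 3 each). The KO call was lost without library 1, 2, 3, 5 or 6 (adjusted p at most 0.105). In the averaged effect Fos rose by 0.56 (SE 0.082, edgeR adjusted p = 0.00245) and Jdp2 by 0.30 (SE 0.055, 0.00752), both in all 21 alternatives. Relb, an NF-κB subunit, fell by 0.28 (SE 0.07, edgeR adjusted p = 0.0263), a call lost without library 2, 3, 4, 6, 9 or 11 (at most 0.0751) and without libraries 8, 9 and 12 together (0.0883). The 8 repressing factors had a median log2 fold change of 0.11 in KO and 0.06 in WT. In KO, edgeR and DESeq2 called 0 of them, with 1 higher at an unadjusted p under 0.05, Id1, an inhibitor of helix-loop-helix factors (0.25, SE 0.11, edgeR adjusted p = 0.285).

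Of the 4 ligand and decoy genes, Tnfsf11, which encodes RANKL, had 7.30 ± 1.09 CPM in KO ethanol and 4.60 ± 0.702 in KO PBS, and 8.71 ± 0.833 in WT ethanol and 4.84 ± 0.824 in WT PBS (SD, n = 3 each). It rose in WT by 0.84 (SE 0.17, edgeR adjusted p = 0.0398) and had 0.67 in KO (SE 0.17, 0.0651). The WT call was lost in 10 of 12 single-library omissions (all but libraries 6 and 7, adjusted p at most 0.116), in a fit of the WT groups alone, and without libraries 8, 9 and 12 together (log2 fold change 0.57, edgeR adjusted p = 0.315). Averaged over genotypes Tnfsf11 rose by 0.76 (SE 0.12, edgeR adjusted p = 0.0034), in all 21 alternatives. Il34, a ligand of the macrophage colony-stimulating factor receptor, rose by 0.53 (SE 0.14, edgeR adjusted p = 0.0365), a call lost without library 1, 2, 3, 5, 6, 10 or 11 (at most 0.0892) and without the low-count filter. Between KO and WT under PBS, under ethanol or in the interaction, edgeR and DESeq2 called 0 genes of the 7 lists. The smallest p there belonged to Mmp9, with a log2 fold change of −0.33 under ethanol (SE 0.11, edgeR adjusted p = 0.82), and to Trem2, with 0.22 under PBS (SE 0.086, edgeR adjusted p = 0.605).

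**Figure D4:**
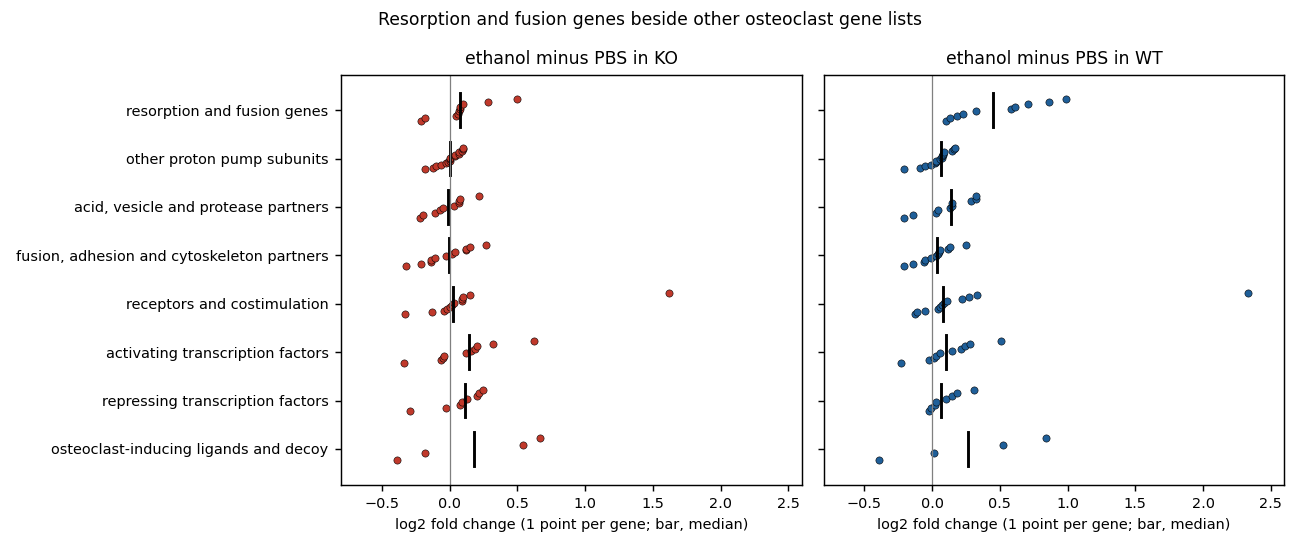
Log2 fold change for ethanol against PBS in KO and in WT for each tested gene (points) of the 10 resorption and fusion genes and 7 other osteoclast lists, with the median of each list as a bar. The WT median is 0.45 for the 10 genes and between 0.03 and 0.27 for the other lists, and the far point in both panels is Calcr.

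Markers of other cell types were read beside these results, and none of them was at 0 in any library. The 10 macrophage markers summed to 877 to 991 CPM in KO ethanol and 858 to 905 in KO PBS, and to 606 to 840 in WT ethanol and 607 to 735 in WT PBS. Their median log2 fold change for ethanol was 0.11 in KO and 0.12 in WT. Of the 10, edgeR called 0 in each genotype, and DESeq2 called 0 in KO and 1 higher in WT. At an unadjusted p under 0.05, 3 were higher in each genotype, against 8.25% of all tested genes in KO and 7.03% in WT. The 15 muscle markers had medians of −0.15 and −0.40 in KO and WT, with summed levels of 5870 to 7650 CPM in KO ethanol and 3000 to 11400 in KO PBS. The 10 osteoblast markers summed to 12300 to 26200 CPM in KO ethanol and 36100 to 43500 in KO PBS, and to 13100 to 25600 in WT ethanol and 25300 to 32200 in WT PBS. The osteoblast list had 10 of 10 genes lower after ethanol in each genotype, with a median of −0.96 in KO and −0.51 in WT. In KO edgeR called 2 of them, Runx2 and Phospho1, both lost without library 1, 2, 3, 4 or 6, and DESeq2 called 9. In WT edgeR called 0 and DESeq2 2, with 3 lower at an unadjusted p under 0.05. The 7 osteocyte markers had medians of −0.33 in KO and −0.57 in WT, with 0 called in each by edgeR, 1 in each by DESeq2, and 2 and 4 lower at an unadjusted p under 0.05.

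The medians for ethanol in KO and WT were 0.18 and 0.03 for 10 neutrophil markers, −0.02 and 0.08 for 10 erythroid markers and −0.19 and 0.07 for 10 B cell markers. They were −0.10 and 0.13 for the 7 of 8 T cell markers tested and −0.09 and −0.16 for 10 megakaryocyte and platelet markers. In none of these 5 lists did edgeR call a gene in either genotype, and DESeq2 called 1, a neutrophil marker higher in KO. In the averaged effect, where Tcirg1 and Ocstamp were called, 2 neutrophil markers rose, Mmp8 (0.42, edgeR adjusted p = 0.0315) and Cxcr2 (0.35, 0.033), and 2 macrophage markers, Cd163 (0.50, 0.0277) and Mertk (0.25, 0.0336). These 4 were named after their values were seen, and each call was lost in 7 to 9 of 12 single-library omissions, that of Mertk also without libraries 8, 9 and 12 (0.117). There 6 of 10 osteoblast markers and 1 of 7 osteocyte markers fell, with medians of −0.75 and −0.37 for these lists. Of the 6, Phospho1, a phosphatase of mineralising cells, fell in all 21 alternatives (−0.65 over the 12 libraries, edgeR adjusted p = 0.00278), while Bglap2, Alpl, Col1a1 and Sp7 were lost without libraries 8, 9 and 12 (adjusted p at least 0.146). Runx2 was lost without library 2 or 6, and Bglap2, Sp7 and Col1a1 in 9, 4 and 11 of the 12 single-library omissions. The osteocyte marker was Phex (−0.70, edgeR adjusted p = 0.0116; 0.0727 without libraries 8, 9 and 12). With the muscle markers as a covariate, the WT median of the 10 osteoclast genes was 0.41, and 0.44 with the neutrophil, erythroid and B cell markers in that role, against 0.45 without. Without libraries 8, 9 and 12 it was 0.62 and without library 10 it was 0.30, and 10 of 10 genes were higher in the fit without library 10. The part of osteoblast, osteocyte and macrophage RNA in these differences, and of neutrophil RNA by itself, the averaged effect included, was not tested.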

How the data were processed

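Femoral shaft RNA was sequenced in 12 libraries. Per the submitters' processing notes, the tools were Trimmomatic 0.36, STAR 2.5.2b, featureCounts and Subread 1.5.2 with genome build GRCm38; settings, annotation release and strand use were not given in the sources used here. Raw whole-number counts were deposited for 49315 Ensembl genes. The authors' second table holds a normalized signal, the count divided by 1 factor per library (relative spread of the ratio at most 1.48e-10), for 17408 genes, and served 1 alternative. Symbols came from that table and otherwise from GENCODE M21 (49056 identifiers matched), which gave coordinates and exon lengths; all 172 listed symbols matched.

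filterByExpr (minimum count 10 and minimum total 15) kept 18161 genes. Counts were scaled by TMM factors (0.908 to 1.05) and fitted in edgeR 4.0.16 (R 4.3.3) by a robust quasi-likelihood model of the 4 groups (common dispersion 0.0338, with 8 residual degrees of freedom). P-values were adjusted by Benjamini-Hochberg over all tested genes and called under 0.05. The fit was also run on simulated data, and no result here rests on that run. Libraries of a group differed beyond counting noise (chi-square per gene 7.47 to 135), so each counted as 1 replicate.

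Alternatives were RLE factors, no filter, at least 5 CPM in 3 libraries, DESeq2 1.42.0 without independent filtering, limma-voom and limma-trend (limma 3.58.1; log2 of signal plus 1), the groups compared alone, muscle or blood cell markers as a covariate, leaving out libraries 8, 9 and 12, and leaving out each library. Genes named are all 10; from each other osteoclast list, up to 4 called genes of largest change, or up to 2 of smallest p; and the 8 genes nearest in profile without predicted genes (profiles used a prior count of 2). The members and lists were chosen with earlier results of these data known. A gene of the lists is not reported here.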

Additional observations from a re-analysis of the deposited data

How the results depend on the processing

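Of the log2 fold changes of the 10 genes over all alternatives, 212 of 220 kept direction and side of the threshold for ethanol in WT, 211 of 220 for ethanol in KO, 191 of 210 for the averaged effect, 202 of 220 for KO under PBS, 216 of 220 for KO under ethanol and 200 of 210 for the interaction. DESeq2 called 6 of the 10 in WT, against 0 by edgeR, and 5 in the averaged effect, against 2. In KO, a fit of the groups compared alone and a muscle covariate each called 1, against 0. The averaged effect had 0 called without libraries 8, 9 and 12, which leaves fewer samples, and 1 to 3 with single libraries left out. The cause of the other differences was not tested.

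Direction turned for these values. For ethanol in WT, Itgb3 was −0.077 without libraries 8, 9 and 12. For KO under PBS, Tcirg1 was 0.003 with RLE factors, 0.0029 with DESeq2 and 0.005 with limma-trend. Ocstamp there was −0.012 with limma-voom, −0.055 with the muscle covariate, −0.042 with the blood covariate and −0.029 without libraries 8, 9 and 12. Clcn7 was −0.0058 with the muscle covariate, Acp5 −0.01 with the blood covariate and Itgb3 −0.087 without libraries 8, 9 and 12. In the interaction, Itgb3 was 0.011 with the muscle covariate and 0.14 without libraries 8, 9 and 12, and Tcirg1 0.059 without them. In the averaged effect, Atp6v0d2 was −0.015 with the muscle covariate and Itgb3 −0.0071 without libraries 8, 9 and 12.

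With single libraries left out, values that turned ran between these bounds. For ethanol in WT, Itgb3 ran between −0.019 and 0.282. For ethanol in KO, Ctsk ran between −0.077 and 0.171, Acp5 between −0.037 and 0.154, Dcstamp between −0.079 and 0.31 and Itgb3 between −0.048 and 0.162. For KO under PBS, Nfatc1 ran between −0.104 and 0.0088, Ctsk between −0.017 and 0.224, Dcstamp between −0.094 and 0.301, Ocstamp between −0.187 and 0.314 and Tcirg1 between −0.043 and 0.067. For KO under ethanol, Tcirg1 ran between −0.125 and 0.047 and Clcn7 between −0.06 and 0.082. In the interaction, Tcirg1 ran between −0.122 and 0.05, Itgb3 between −0.221 and 0.074 and Clcn7 between −0.113 and 0.03. In the averaged effect, Atp6v0d2 ran between −0.086 and 0.066.

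A fit of only the groups compared was not run for the interaction and the averaged effect, which need all 4 groups. No paired analysis was possible because the libraries carry the numbers 1 to 12 and no number is shared between groups. Depth limits Dcstamp, Ocstamp and Oscar most, with as few as 100, 74 and 131 counts in a library.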
